A study of Homo sapiens with 9 samples.

Results

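The response of H69 cells to added laminin 511-E8 was measured as the difference in RNA levels between 3 libraries of treated cells and 3 control libraries, which are 6 of the 9 libraries of the series. H69 is an immortalized line of human cholangiocytes, the epithelial cells that line the bile ducts. Wells were seeded with 100000 cells, and after 48 h of growth the cells were treated for 48 h, with fresh medium at 24 h. The treated cells received recombinant human laminin 511-E8 at 0.25 µg/cm2, and the control cells received 10 µl DMSO, the vehicle. The labels name DMSO for the control cells only, so the presence of laminin 511-E8 and the absence of DMSO cannot be told apart here. All cells carried the wild-type genotype of the line, and poly(A)-selected RNA was sequenced. The 3 libraries of a group were called biological replicates and were those with the best RNA integrity, but the sources used here give no separate passages or days, so each p-value reflects only how these cultures varied. Of 61541 gene identifiers, 15997 passed a filter on low counts by group, and 15737 of these had a known GC content and were tested with each library's GC trend removed.

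Laminins are heterotrimers of the basement membrane, the sheet of matrix on which epithelia rest. Laminin 511 is made of the alpha5, beta1 and gamma1 chains, encoded by LAMA5, LAMB1 and LAMC1, and its E8 fragment keeps the part of the molecule that integrins recognize, mainly alpha6beta1 and alpha3beta1. Binding of these integrins signals through focal adhesions to the cytoskeleton and to pathways that control growth and survival. In bile ducts, laminin 511 lies below the cholangiocytes, and laminin 511-E8 is an autoantigen of IgG4-related cholangitis.

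The total count of the 6 libraries ranged from 12529867 to 39518899, and 3 counts, the limit that a count of 0 allows, corresponded to 0.0759 to 0.239 CPM, which is reads of a gene relative to all reads counted in the library. This limit covers counting error only. Levels are given as CPM with libraries scaled by TMM. Genes of the mitochondrial genome took 10.0% to 16.2% of the counts of the control libraries, with the highest share in control library 2, and 11.3% to 11.6% of those of the treated libraries. The biliary markers KRT7, KRT19, EPCAM and CD24 were abundant in the control libraries, with means of 1363, 616, 97.9 and 1171 CPM. Of 31 hepatocyte genes, ALB, APOA1 and TTR were listed at 0 in all 6 libraries, but 7 were high enough to test, among them APOB and FGG with means of 81.7 and 15.2 CPM in the control libraries. In treated cells 2 of the 7 were higher at an unadjusted p of 0.05, against 2.47% of all genes tested, and 0 were called. FGG was among the 2 (log2 fold change 0.45, unadjusted p = 0.0044). Of the other cell types, PTPRC, a marker of leukocytes, had 2 counts in all. ACTN4, which most cells use, had 3 counts over the control libraries and 15 over the treated libraries, so a level near 0 in these tables need not mean that a gene was silent.

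The libraries differed in how their counts depended on the GC content of genes, and this difference did not follow the groups. Between genes of 40% and 60% GC, the fitted deviation of a library from the mean of all libraries changed by -0.24, -0.17 and 0.12 on the log2 scale in control libraries 1, 2 and 3. The change was -0.29, 0.52 and -0.33 in the laminin 511-E8 libraries, so the second treated library sloped against the other two. The comparison was therefore made both with and without this trend.

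**Figure D1:**
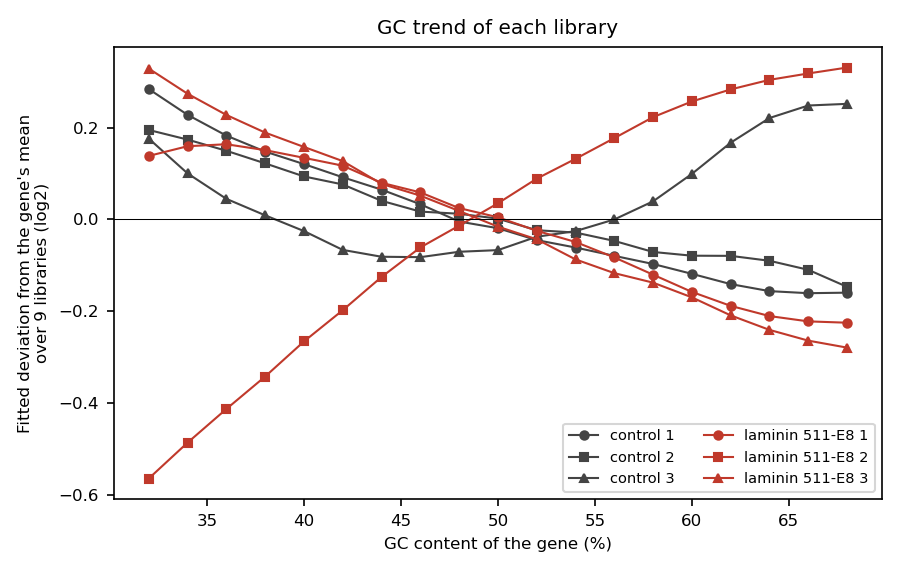
Fitted log2 deviation of each library from the mean of a gene over all 9 libraries (y axis) against the GC content of the gene in percent (x axis), with a line for each of the 3 control and 3 laminin 511-E8 libraries. The second laminin 511-E8 library rose with GC content while the first and the third fell, and the third control library rose at high GC content.

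With the trend removed, laminin 511-E8 and control cells differed in 33 genes at an adjusted p of 0.05 (quasi-likelihood test of edgeR), 10 of them higher and 23 lower in treated cells. These are 0.21% of the genes tested in either direction, 0.0635% higher and 0.146% lower. The absolute log2 fold change of the 33 genes ranged from 0.40 to 1.75, which corresponds to differences from 1.32-fold to 3.35-fold, and the median over all genes tested was -0.012. At an unadjusted p of 0.05, 388 genes (2.47%) were higher and 725 (4.61%) were lower. In 883 genes (5.61%) every treated library was above every control library on the corrected scale, and in 1262 (8.02%) every treated library was below. The shares at an unadjusted p of 0.05 are the background for the list counts below. The median of -0.012 is the background for their signs.

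Without removal of the trend, 0 of 15997 genes passed in edgeR's test, with 454 genes at an unadjusted p of 0.05 and a lowest adjusted p of 0.199. limma also called 0 genes without correction, and DESeq2 called 21, of which 14 were among the 33. The median standard error of a log2 fold change was 0.211 without correction and 0.126 with it. All 33 genes had the same sign in both fits, and in 32 of them the groups were also separate in uncorrected CPM, with ALOX15B as the exception. The call itself thus depended on the correction, and the count of 33 ranged from 0 to 54 when any 1 of the 9 libraries was left out. It was 0 without the first laminin 511-E8 library and 2 without the third or without control library 1. Of the 33 genes, 21 passed in 0 of the 6 fits that left out a control or laminin 511-E8 library, among them IL6, SOCS3, KRT19, CLDN1 and PPARGC1A.

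**Figure D2:**
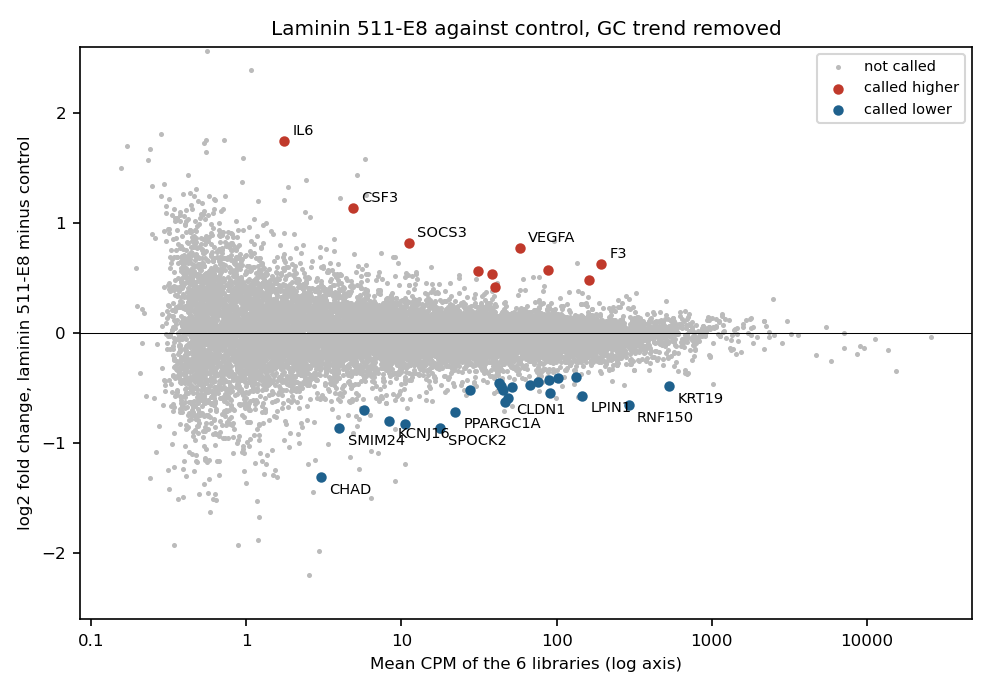
Log2 fold change of laminin 511-E8 against control with the GC trend removed (y axis) against the mean CPM of the 6 libraries (x axis, log scale), with a point for each gene tested and the 10 called higher and 23 called lower in colour. The called genes lay between 0.40 and 1.75 in absolute log2 fold change, and 1 gene that was not called lies outside the axis limit of 2.6.

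IL6 and CSF3, both genes of secreted inflammatory cytokines, had the largest increases among the called genes. IL6 (ENSG00000136244, chromosome 7, 22725884 to 22732002, GRCh38) encodes interleukin-6, a cytokine that signals through the receptor subunit gp130 to STAT3. Its level was 0.791, 0.639 and 1.02 CPM in the control libraries and 2.48, 2.88 and 2.75 CPM in the laminin 511-E8 libraries. The groups did not overlap, although the control values rest on 24, 11 and 13 counts and the treated values on 43, 63 and 105. IL6 rose 3.35-fold (log2 fold change 1.75, 95% interval 1.20 to 2.29, adjusted p = 0.0185). CSF3, which encodes the granulocyte colony-stimulating factor, measured 2.80, 2.61 and 3.69 CPM in control cells and 6.63, 7.46 and 5.95 CPM in treated cells. Every treated library was above every control library, and the rise was 2.2-fold (log2 fold change 1.14, adjusted p = 0.00835).

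Of 23 cytokine and chemokine genes considered, 16 could be tested. Beside the 2 that passed, 8 others were higher at an unadjusted p of 0.05 and 0 were lower. Of all genes tested, 2.47% were higher and 4.61% lower at that p. The median log2 fold change of the 16 was 0.38, against -0.012 over all genes tested. CXCL2, a chemokine that attracts neutrophils, did not pass, with an adjusted p of 0.157. It measured 2.77, 2.56 and 3.69 CPM in control cells and 9.39, 7.28 and 9.17 CPM in treated cells, without overlap, and its log2 fold change was 1.58 (standard error 0.33). Its call turned on the settings. With the GC content unchanged, it passed in DESeq2 (adjusted p = 0.000189) and in edgeR with only the 6 compared libraries in the fit (adjusted p = 0.0279). When the GC content of the longest transcript of each gene replaced the median over its transcripts, a choice made after the data had been seen, the log2 fold change was 1.5 and the adjusted p 0.00623. The related chemokine genes CXCL1 (1.37, adjusted p = 0.461) and CXCL3 (0.91, adjusted p = 0.274) did not pass, and CXCL1, CXCL2 and CXCL3 are close paralogs whose reads the counting could have split. CXCL8 (0.89) and IL1A (0.81) averaged about 0.5 CPM in control cells and did not pass, and the interleukin gene IL1B had a log2 fold change of -0.36 (unadjusted p = 0.23). TNF was listed at 0 in all 6 libraries.

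SOCS3, a feedback inhibitor of gp130 signalling that STAT3 induces, measured 8.07, 7.73 and 8.47 CPM in control cells and 12.8, 17.4 and 12.3 CPM with laminin 511-E8. The groups were separate, and SOCS3 rose 1.76-fold (log2 fold change 0.82, standard error 0.12, adjusted p = 0.0162). Of 16 tested genes of the gp130 and STAT3 pathway, SOCS3 alone passed. At an unadjusted p of 0.05, 4 genes were higher and 2 lower, against 2.47% and 4.61% of all genes tested. The median of the 16 was -0.04. The gp130 gene IL6ST (log2 fold change -0.02) and STAT3 (0.11) did not pass, nor did the interleukin-6 receptor gene IL6R (-0.23, unadjusted p = 0.035) or the oncostatin M receptor gene OSMR (0.22, unadjusted p = 0.014).

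Genes of the NF-kB pathway had a median log2 fold change of 0.15 over 14 tested members, and none passed the test. At an unadjusted p of 0.05, 6 were higher and 0 were lower, against 2.47% and 4.61% of all genes tested. ICAM1, an adhesion molecule induced by NF-kB, measured 12.0, 14.6 and 13.1 CPM in control cells and 17.2, 19.8 and 17.9 CPM in treated cells (log2 fold change 0.44, adjusted p = 0.208). The feedback inhibitors TNFAIP3 (0.28) and NFKBIA (-0.14) differed in sign and neither passed.

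The promoter sequences of the genes that rose were searched for motifs of the transcription factors that act on such genes, because several of them moved together. RefSeq (GRCh38.p14) gave a promoter for 5 of the 10 genes that rose and for 15 of the 23 that fell, and the 250 bases before the gene start were searched on both strands. The NF-kB motif was found in IL6 among the 5 and in 0 of the 15, and in 5.05% of all 27305 promoters and 5.88% of the 10717 promoters of genes tested here. The AP-1 motif TGANTCA, bound by FOS and JUN proteins, was found at 2 positions in F3 among the 5 and in KCNJ16 and DNAJC15 among the 15, and in 6.6% of all promoters and 3.97% of those of tested genes. The TATA box TATAAA was found in S100A9 and F3 among the 5 genes and in CHAD and DNAJC15 among the 15, and in 11.1% of all promoters and 5.28% of those of tested genes. Of the other motifs searched, the STAT motif TTCNNNGAA was found in SORBS2 and DNAJC15 (6.78% of all promoters, 5.65% of those of tested genes), the TEAD motif GGAATG in SOCS3 (11.9% and 9.35%) and the E box CACGTG in MTHFD1L, PPARGC1A and TJP3 (6.49% and 8.79%). The cyclic AMP response element TGACGTCA (1.77% and 2.91%) and the CArG box (1.14% and 0.942%) were found in 0 of the 20 promoters. The windows printed here are shown because they belong to the genes with the largest change in each direction and to F3, with the motif in capitals. The IL6 window (chr7:22727117-22727146, plus strand) has its motif at position -73 from the gene start, the F3 window (chr1:94541951-94541980, minus strand) at -210 and the CHAD window (chr17:50468892-50468921, minus strand) at -29. Positions are counted from the RefSeq gene start, which in IL6, F3 and CHAD lies inside the wider GENCODE 29 span of the gene.
IL6, NF-kB: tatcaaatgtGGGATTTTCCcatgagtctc
F3, AP-1: aatcactggggTGAGTCAtcccttgcaggg
CHAD, TATA box: tcagggccaccgTATAAAgagggcggcaga
These matches describe the letters of the windows and were not tested as binding sites.

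VEGFA and F3 rose from levels above those of IL6 and CSF3. VEGFA (chromosome 6, 43770184 to 43786487) encodes the main growth factor of endothelial cells and is induced by hypoxia. It measured 40.9, 43.2 and 43.0 CPM in the control libraries and 69.1, 73.0 and 79.1 CPM in the laminin 511-E8 libraries. The groups were far apart relative to their spread, and VEGFA rose 1.71-fold (log2 fold change 0.77, 95% interval 0.55 to 1.00, adjusted p = 0.0162). Of 24 genes of glycolysis and the hypoxia response, VEGFA alone passed. At an unadjusted p of 0.05, 9 were higher and 0 lower, against 2.47% and 4.61% of all genes tested. The median of the list was 0.17, against -0.012 over all genes tested, and 21 of the 24 values were positive. SLC2A3, a glucose transporter gene, had a log2 fold change of 0.60 (adjusted p = 0.0632), and CA9, a carbonic anhydrase induced by hypoxia, of 0.37 (unadjusted p = 0.0052). With the GC content of the longest transcript, SLC2A3 passed (adjusted p = 0.037). LDHA (-0.28), HIF1A (0.09) and PKM (-0.01) did not pass.

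F3 encodes tissue factor, the membrane protein that starts coagulation. It measured 162, 156 and 138 CPM in control cells and 247, 189 and 270 CPM in treated cells, without overlap, and rose 1.55-fold (log2 fold change 0.63, standard error 0.08, adjusted p = 0.00835). Of 13 genes of coagulation and plasminogen activation, 2 passed, F3 among them, and the median was 0.07. The genes of the activators themselves, PLAU (0.00) and PLAT (0.04), did not pass.

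MYC, the transcription factor that drives ribosome production and growth, rose 1.49-fold, from 66.8, 70.0 and 73.6 CPM to 100.3, 116 and 103 CPM (log2 fold change 0.58, adjusted p = 0.0162). It was the only one of 21 tested immediate early genes, which respond first to growth factors and stress, to pass. At an unadjusted p of 0.05, 7 of the 21 were higher and 0 lower, against 2.47% and 4.61% of all genes tested. The median was 0.08. JUNB (0.40, adjusted p = 0.0562) and FOSL1 (0.56, unadjusted p = 0.0015), which encode subunits of AP-1, did not pass, and EGR1 had a log2 fold change of 0.35 (unadjusted p = 0.0041). With the GC content of the longest transcript, JUNB passed as well (adjusted p = 0.0369). FOS (0.24) and JUN (-0.08) did not pass either. Ligands and feedback genes of the EGF receptor had 0 of 19 members called, with a median of 0.07. At an unadjusted p of 0.05, 6 of the 19 were higher, against 2.47% of all genes tested. EGFR itself had a value of -0.09.

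CCN1, a secreted matrix protein and a target of the mechanosensitive factors YAP and TAZ, measured 114, 102 and 99.4 CPM in control cells and 166, 155 and 176 CPM in treated cells. The groups were separate, but the adjusted p was 0.111 (log2 fold change 0.63), and with the GC content of the longest transcript it was 0.00683. Of 19 tested genes, which were targets together with YAP1, WWTR1 (the gene of TAZ) and their partner TEAD1, F3 alone passed. At an unadjusted p of 0.05, 4 were higher and 3 lower, against 2.47% and 4.61% of all genes tested. The median was -0.01. CCN2 had a log2 fold change of 0.45 and did not pass (unadjusted p = 0.00014, adjusted p = 0.0562). AMOTL2 (0.04), ANKRD1 (0.12) and YAP1 (-0.15) did not pass either.

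S100A9, a calcium-binding protein of inflamed epithelia and neutrophils, rose from 24.6, 27.0 and 22.3 CPM to 37.9, 42.4 and 32.7 CPM (log2 fold change 0.57, adjusted p = 0.0456). It was called alone among 12 tested S100 genes, whose median was -0.09, and its partner S100A8 had a value of 0.23 (unadjusted p = 0.19). STC1, a secreted glycoprotein that regulates calcium and phosphate, rose by 0.54 on the log2 scale, with control values of 29.9, 33 and 30.2 CPM and treated values of 45.0, 38.3 and 52.8 CPM (adjusted p = 0.0402). MTHFD1L, an enzyme of mitochondrial one-carbon metabolism, had the smallest increase among the genes called higher, at 1.33-fold (log2 fold change 0.42, adjusted p = 0.0430). Its levels of 35.7, 32.8 and 33.1 CPM in control cells and 44.2, 48.3 and 46.5 CPM in treated cells did not overlap, but its adjusted p was 0.122 with the GC content of the longest transcript.

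**Figure D3:**
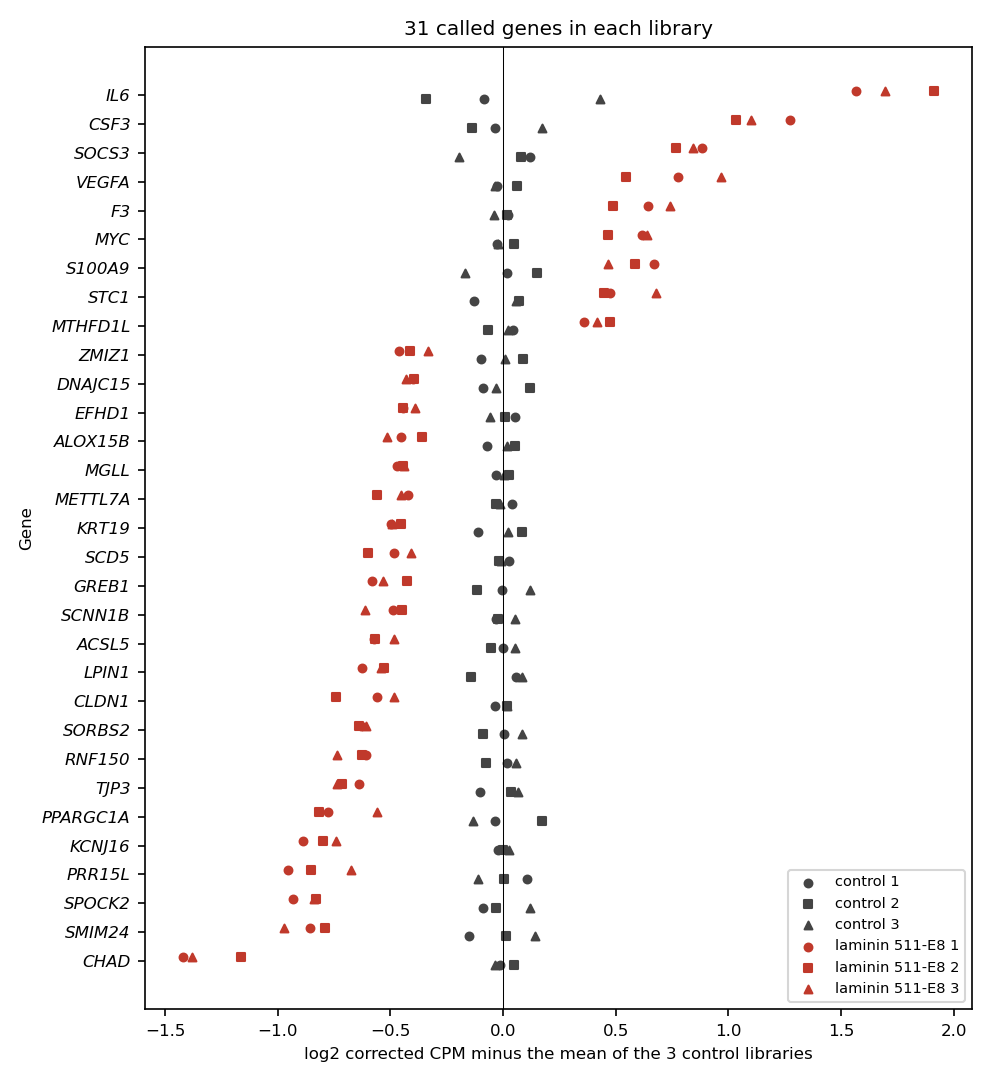
Of the 33 called genes, 31 (y axis) in each of the 6 libraries as log2 corrected CPM minus the mean of the 3 control libraries (x axis), with grey marks for control and red marks for laminin 511-E8 libraries. For each gene the 3 red marks lie to 1 side of the 3 grey marks, farthest in IL6 above and in CHAD below.

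Among the genes that fell, the largest decrease was that of CHAD (chromosome 17, 50464496 to 50468966), which encodes chondroadherin, a leucine-rich matrix protein that binds cells. It measured 4.02, 4.24 and 4.62 CPM in control cells and 1.44, 2.34 and 1.49 CPM with laminin 511-E8. The groups did not overlap, and the control level was 2.48 times the treated level (log2 fold change -1.31, 95% interval -1.65 to -0.97, adjusted p = 0.00835). SPOCK2, a proteoglycan of the matrix also called testican-2, measured 20.3, 21.1 and 26.5 CPM in control cells and 10.8, 15.3 and 11.6 CPM in treated cells. It had the lowest adjusted p of all genes together with RNF150, and fell by 0.86 on the log2 scale (adjusted p = 0.0038, standard error 0.09). DAG1, the gene of the laminin receptor dystroglycan, did not pass, with a log2 fold change of -0.26 (adjusted p = 0.180).

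RNF150, a membrane-bound ubiquitin ligase, was the most abundant of the genes with a decrease above 0.60 on the log2 scale. Its level of 368, 338 and 353 CPM in control cells stood against 239, 226 and 222 CPM in treated cells. The SD within a group was 15.1 and 8.79 CPM, far less than the difference, and the log2 fold change was -0.66 (adjusted p = 0.0038, standard error 0.07). The calls of RNF150 and SPOCK2 held under 21 of 23 alternative analyses each, the most of the 33 genes. Those of the other 31 held under 9 (DNAJC15) to 19, with a median of 14.

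KRT19, the keratin by which cholangiocytes are usually recognized, fell by 0.48 on the log2 scale (adjusted p = 0.0250, standard error 0.07). Its level was 547, 626 and 676 CPM in control cells and 399, 545 and 405 CPM in treated cells. The lowest control library and the highest treated library were close, at 547 and 545 CPM, and the second treated library, whose GC trend sloped against the others, was the higher one. With the GC trend removed, the treated libraries stood at 446, 460 and 447 CPM. Of 25 cholangiocyte markers, 12 could be tested, and KRT19 alone passed. All 12 had a negative value, with a median of -0.28, against -0.012 over all genes tested. At an unadjusted p of 0.05, 5 were lower, against 4.61% of all genes tested. EPCAM measured 101, 104 and 88.2 CPM in control cells and 82.5, 59.7 and 92.5 CPM in treated cells. These levels overlapped, the groups were separate with the GC trend removed, and EPCAM did not pass (log2 fold change -0.35, adjusted p = 0.652). CD24 (-0.47), SOX9 (-0.49) and KRT7 (-0.14) did not pass. In bulk RNA, fewer cells of a kind and less RNA in each cell cannot be told apart.

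Keratin genes differed in sign. Of 13 tested, KRT19 alone passed and the median was -0.10. KRT15, a keratin of basal cells, had a log2 fold change of -0.82 (unadjusted p = 0.0019), whereas KRT16 (0.54, unadjusted p = 0.0091) and KRT17 (0.28, unadjusted p = 0.021) were positive. KRT8 (-0.01) and KRT18 (0.12), the pair found in all simple epithelia, did not pass. KRT6A and KRT6B, and KRT81 and KRT86, are near copies whose counts are uncertain.

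Genes of the tight junction included 2 that fell. CLDN1 encodes claudin-1, a protein that seals the space between epithelial cells. It measured 59.9, 60.1 and 55.0 CPM in control cells and 41.5, 30.5 and 44.6 CPM in treated cells, without overlap, and fell by 0.59 on the log2 scale (adjusted p = 0.0208, standard error 0.09). TJP3, which encodes the scaffold protein ZO-3, measured 6.09, 6.86 and 8.54 CPM against 3.98, 5.31 and 3.72 CPM and fell by 0.70 (adjusted p = 0.0382). Of 19 genes tested, 17 had a negative value, and the median was -0.14, against -0.012 over all genes tested. At an unadjusted p of 0.05, 5 were lower and 0 higher, against 4.61% and 2.47% of all genes tested. The cingulin gene CGN had a value of -0.26 (unadjusted p = 0.028), and TJP1 (-0.03), PARD3 (0.00) and OCLN (-0.14, at 1.2 CPM) did not pass.

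Adherens junctions and desmosomes had 0 of 16 members called and a median of -0.10. At an unadjusted p of 0.05, 4 members were lower, against 4.61% of all genes tested. CDH1, the gene of E-cadherin, measured 345, 316 and 313 CPM in control cells and 276, 282 and 267 CPM in treated cells (log2 fold change -0.28, adjusted p = 0.177), so the groups were separate without passing the test. Of 18 mesenchymal genes, 0 passed, and the median was 0.08. At an unadjusted p of 0.05, 5 were higher and 0 lower, against 2.47% and 4.61% of all genes tested. SNAI2, a repressor of epithelial genes, measured 72.4, 78.9 and 62.1 CPM against 93.7, 82.4 and 108 CPM (log2 fold change 0.43, adjusted p = 0.0976), and FN1 had a value of 0.09.

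**Figure D4:**
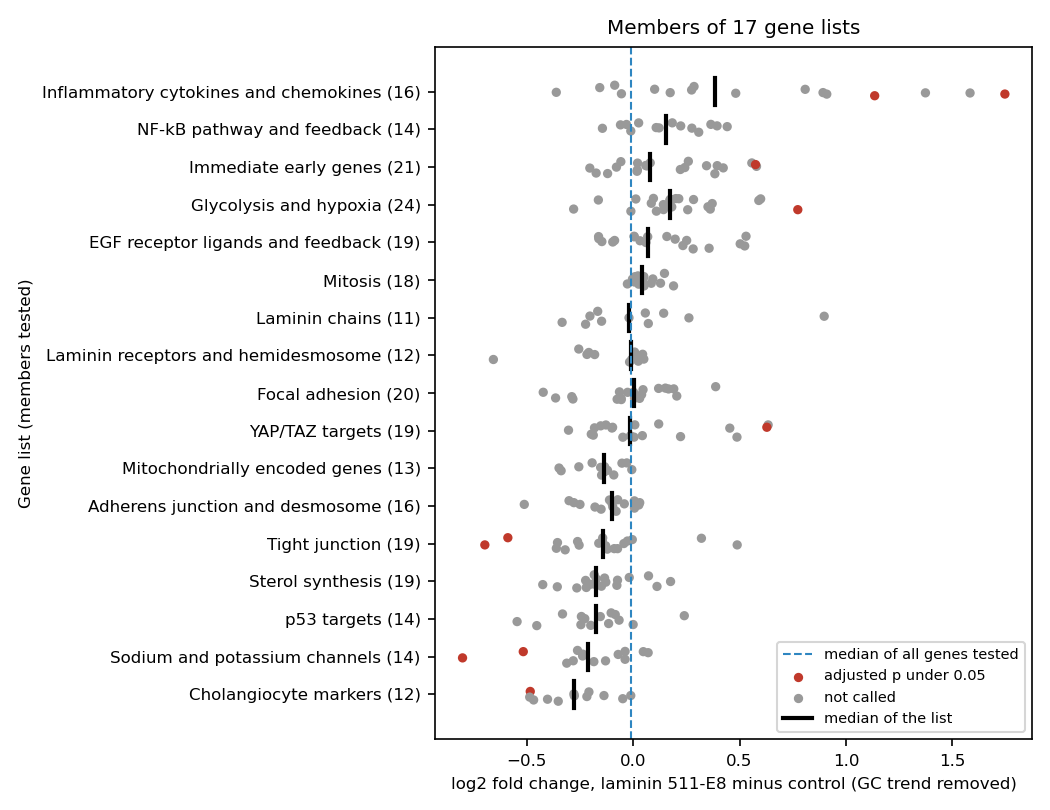
Log2 fold change with the GC trend removed (x axis) of the tested members of 17 gene lists (y axis), with a point for each gene, red points for called genes, a black bar for the median of the list and a dashed line for the median of all genes tested. Medians range from 0.38 for inflammatory cytokines to -0.28 for cholangiocyte markers, and most members of every list were not called.

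The ion channel genes KCNJ16 and SCNN1B fell, out of a list of 14 tested sodium and potassium channel and pump genes. KCNJ16 encodes an inwardly rectifying potassium channel subunit of transporting epithelia. It measured 11.2, 10.9 and 10.3 CPM in control cells and 6.05, 4.81 and 6.97 CPM in treated cells, without overlap, and fell by 0.80 on the log2 scale (adjusted p = 0.0198, standard error 0.12). SCNN1B, the beta subunit of the epithelial sodium channel, fell by 0.52 (adjusted p = 0.0233), from 31.0, 31.1 and 34.6 CPM to 21.9, 27.6 and 20.1 CPM. The alpha and gamma subunits SCNN1A (-0.28, adjusted p = 0.395) and SCNN1G (-0.31, adjusted p = 0.226) had the same sign without passing. The median of the list was -0.21, against -0.012 over all genes tested, and 12 of 14 values were negative. At an unadjusted p of 0.05, 5 genes were lower, against 4.61% of all genes tested.

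PPARGC1A encodes PGC-1alpha, the coactivator that promotes mitochondrial biogenesis and fatty acid oxidation. It measured 27.6, 30.9 and 23.4 CPM in control cells and 16.5, 14.8 and 19.5 CPM in treated cells, and fell by 0.72 on the log2 scale (adjusted p = 0.0329, standard error 0.12). LPIN1, a phosphatidate phosphatase that also acts with PGC-1alpha, measured 181, 155 and 179 CPM against 112, 126 and 119 CPM and fell by 0.57 (adjusted p = 0.0162). Both belong to a list of 19 tested genes of PGC-1alpha and fatty acid oxidation, whose median was -0.05. At an unadjusted p of 0.05, 5 of the 19 were lower and 0 higher, against 4.61% and 2.47% of all genes tested. In the list, 15 values were negative. Among the other enzymes of the list, CPT1A (-0.24, unadjusted p = 0.023) and ACADVL (-0.16, unadjusted p = 0.040) were below that p, whereas HADHA (-0.05), ACADM (-0.03) and CPT2 (-0.01) were not.

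ACSL5, which activates long-chain fatty acids, fell by 0.54 (adjusted p = 0.0152), from 112, 104 and 104 CPM to 75.2, 68.0 and 81.3 CPM. SCD5, a stearoyl-CoA desaturase, fell by 0.49 (adjusted p = 0.0282), MGLL, a lipase that cleaves monoacylglycerols, by 0.45 (adjusted p = 0.0233) and ALOX15B, a lipoxygenase, by 0.44 (adjusted p = 0.0282). ALOX15B was the called gene whose groups overlapped before correction, with 79.7, 86.2 and 92.1 CPM in control cells and 58.8, 80.4 and 56.8 CPM in treated cells. Genes of sterol synthesis had 0 of 19 members called, a median of -0.17, and 16 negative values, with INSIG1 at -0.42 (unadjusted p = 0.019).

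ACSL5, SCD5, MGLL and ALOX15B belong to no list considered here, nor do the other called genes of this paragraph. PRR15L measured 14.4, 13.3 and 12.2 CPM in control cells and 6.86, 8.02 and 8.36 CPM in treated cells and fell by 0.82 on the log2 scale (adjusted p = 0.0162). SMIM24, a small membrane protein, fell by 0.87 (adjusted p = 0.0327), from 4.51, 5.05 and 5.72 CPM to 2.71, 3.39 and 2.49 CPM. SORBS2, an adaptor of the actin cytoskeleton and cell junctions, fell by 0.63 (adjusted p = 0.00797), with treated libraries between 35.3 and 38.1 CPM and control libraries between 52.7 and 57.2 CPM. GREB1, known as an estrogen-responsive gene, fell by 0.51 (adjusted p = 0.0282). METTL7A (-0.48), EFHD1 (-0.43), DNAJC15 (-0.41) and ZMIZ1 (-0.40) also passed. SCD5, EFHD1 and DNAJC15 did not pass with the GC content of the longest transcript, with adjusted p-values of 0.0604, 0.0707 and 0.444. Just outside the threshold was TSC22D3, a target of the glucocorticoid receptor, with a log2 fold change of -0.49 and an adjusted p of 0.0501, together with APBB2 and IFI16 at the same adjusted p, and DNAJC15 was just inside at 0.0479. TSC22D3 passed with the GC content of the longest transcript (adjusted p = 0.0184).

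The genes of the receptors and chains of laminin 511 did not pass the test. ITGB1, the beta1 integrin subunit, had a log2 fold change of -0.02 (95% interval -0.20 to 0.17), and ITGA3, the alpha3 subunit, of 0.05 (95% interval -0.14 to 0.24). ITGA6, the alpha6 subunit, measured 82.8, 81.4 and 80.8 CPM in control cells and 71.8, 56.9 and 82.1 CPM in treated cells. These levels overlapped, the groups were separate with the GC trend removed, and the log2 fold change was -0.21 (unadjusted p = 0.014, adjusted p = 0.552). Of 12 genes of laminin receptors and hemidesmosomes, 0 were called and the median was -0.01. At an unadjusted p of 0.05, 2 of the 12 were lower, against 4.61% of all genes tested. The chain genes LAMA5 (-0.20), LAMB1 (0.14, adjusted p = 0.697) and LAMC1 (0.07, 95% interval -0.10 to 0.24) did not pass. LAMA5 was the least precise, since control library 3 (201 CPM) and treated library 2 (163 CPM) stood above the other 4, which ranged from 90.4 to 108 CPM. Among all 11 laminin chains, 0 were called, with LAMB2 at -0.33 (unadjusted p = 0.0052). At an unadjusted p of 0.05, 2 chains were higher and 2 lower, against 2.47% and 4.61% of all genes tested. Of 20 focal adhesion genes, 0 were called and the median was 0.00, and NEDD9, a docking protein of integrin signalling, had a value of -0.36 (unadjusted p = 0.00039).

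The genes of the other autoantigens of IgG4-related cholangitis had values near 0. ANXA11 had a log2 fold change of -0.06 (95% interval -0.24 to 0.12), LGALS3 of 0.04 (95% interval -0.46 to 0.54), PHB1 of 0.03 (95% interval -0.10 to 0.17) and PHB2 of 0.08 (95% interval -0.06 to 0.22). The interval of LGALS3 is wide, and a difference within it could not be detected with these libraries. Genes of bicarbonate and chloride secretion had 0 of 16 members called, with a median of -0.04, and the carbonic anhydrase gene CA12 had a value of 0.38 (unadjusted p = 0.0011).

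Proliferation genes had values near 0. The median of 18 mitosis genes was 0.04, with values from -0.03 to 0.19, and 0 were called at either threshold. The median of 20 DNA replication genes was -0.01. Of 14 p53 target genes, 0 passed, with a median of -0.18. At an unadjusted p of 0.05, 6 were lower, against 4.61% of all genes tested. TP53INP1 (-0.45, unadjusted p = 0.0011) and CDKN1A, the cell cycle inhibitor p21 (-0.25, unadjusted p = 0.02), were among them. Of 19 glucocorticoid receptor targets, 0 passed. At an unadjusted p of 0.05, 3 of these targets were higher and 6 lower, against 2.47% and 4.61% of all genes tested. The 13 protein genes of the mitochondrial genome all had negative values, with a median of -0.14, and 0 of them passed. Their share of counts was highest in control library 2. With these and the other mitochondrial genes left out of all libraries, a choice made after the data had been seen, 36 genes were called, among them all 33.

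The 14 lists not yet described, among them other integrin subunits, collagens, matrix proteases, Notch, interferon and stress response genes, held 1 called gene and their medians ranged from -0.29 to 0.07. Markers of 3 other cell types were mostly too low to test, with 7 of 31 hepatocyte, 4 of 11 endothelial and 3 of 14 leukocyte genes tested. Of these, 0 were called. Most mesenchymal genes, by contrast, were high enough, with 18 of 24 tested and 0 called.

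The called genes were also read in the third group of the series, cells given 10 µM acetazolamide, which inhibits carbonic anhydrases. The comparisons share libraries, so the values stand side by side and their likeness is not a result. Against control, acetazolamide gave 0 calls among all genes tested, with 641 at an unadjusted p of 0.05. Against acetazolamide, laminin 511-E8 gave 20 calls, and 14 of the 33 genes were among them, 2 higher and 12 lower. SOCS3 (log2 fold change 0.97, adjusted p = 0.0155) and VEGFA (0.66, adjusted p = 0.0315) were higher than in acetazolamide-treated cells. CSF3 was not, with a value of 0.07, and its levels of 7.08, 4.89 and 8.50 CPM with acetazolamide overlapped those with laminin 511-E8. MYC (0.24, adjusted p = 0.675), IL6 (1.07, adjusted p = 0.139) and the rest of the 10 genes called higher did not pass either. RNF150, SPOCK2, SORBS2, CHAD, ACSL5, PRR15L, LPIN1, KCNJ16, SCNN1B, KRT19 and GREB1 were among the 12 that were lower with laminin 511-E8 than with acetazolamide, with log2 fold changes from -1.20 for CHAD to -0.50 for KRT19.

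**Figure D5:**
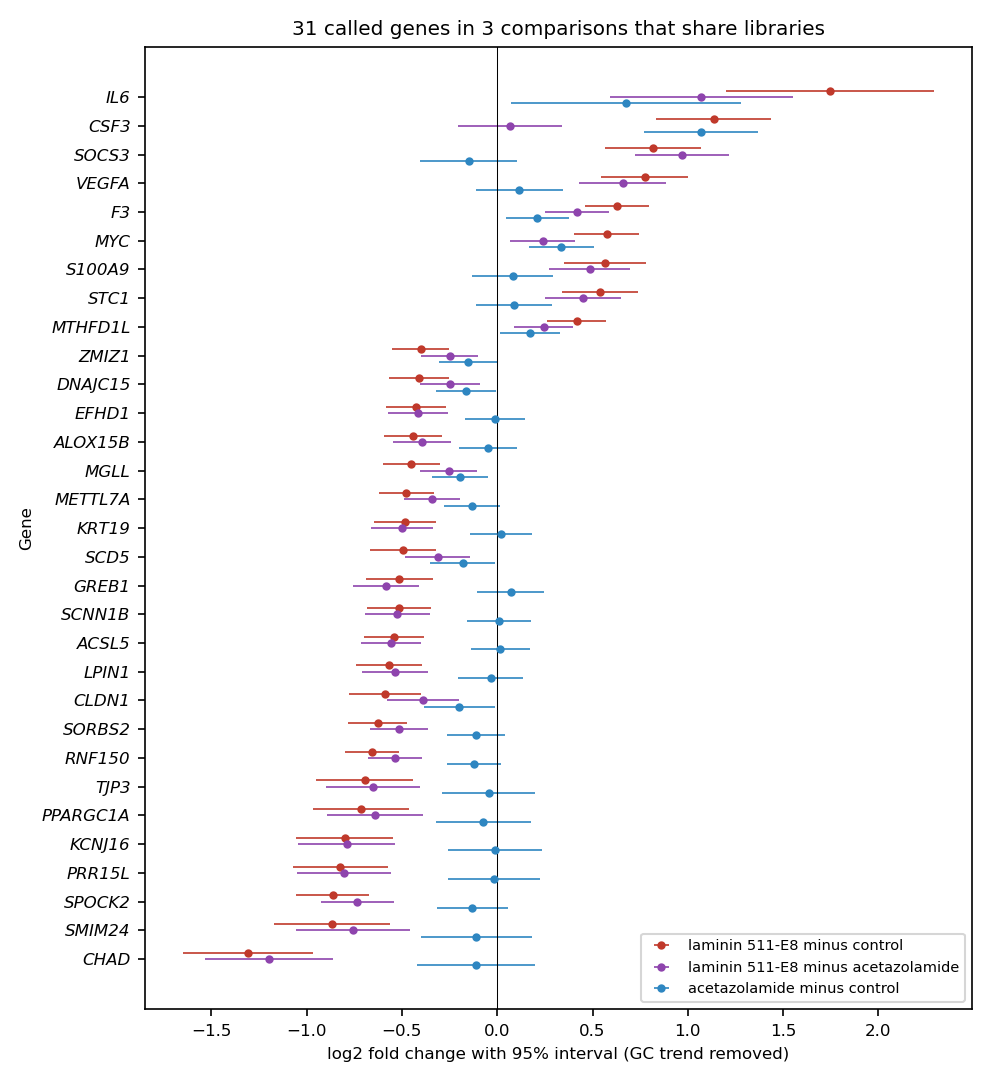
Log2 fold change with its 95% interval and the GC trend removed (x axis) of 31 of the 33 called genes (y axis) in 3 comparisons that share libraries, laminin 511-E8 minus control in red, laminin 511-E8 minus acetazolamide in purple and acetazolamide minus control in blue. CSF3 stands at 1.14 and 1.07 against control in the laminin 511-E8 and acetazolamide comparisons and at 0.07 between the treatments, whereas RNF150 stands at -0.66, -0.12 and -0.54.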

How the data were processed

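Raw read counts per gene, made by the authors, were deposited for each library. The submitters' processing notes list HISAT2 2.2.1, HTSeq 0.11.0, Trimmomatic 0.39, FastQC 0.11.9 and the build GRCh38. The sources used here do not give the strand setting, the gene annotation or how multi-gene reads were counted, so overlapping and antisense genes and close paralogs are uncertain. Names were matched for 61369 identifiers, and 159 more were named from GENCODE 29. There were 0 columns without a sample and 0 entries without a gene.

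Counts were tested with edgeR 4.0.16 in R 4.3.3 (filterByExpr by group, TMM, robust quasi-likelihood fit) over all 9 libraries, with Benjamini-Hochberg adjustment over all genes tested and a threshold of 0.05. GC content was the median over a gene's GENCODE 29 transcripts and was known for 58312 identifiers. The GC trend was removed as an offset, a local regression (span 0.3) of each library's log2 CPM deviations on GC content. No-overlap counts use corrected CPM. DESeq2 1.42.0 and limma 3.58.1 (voom), among other settings, were alternatives. The scripts were checked on simulated counts. Replicate libraries differed by more than sampling noise (chi-square over its degrees of freedom, 4.77 to 48.7 within the control and laminin 511-E8 groups and up to 90.8 between acetazolamide libraries). Python 3.11.15, pandas 2.3.3 and matplotlib 3.10.9 were used.

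The genes, the 41 lists, the tests and the GC correction were chosen with earlier results of these data known, so a list's direction is no independent evidence. Named genes were, in each direction, up to 16 genes by size of change that passed with at least 1 CPM and no overlap, passing list members (up to 4) or the 2 with the smallest p, the laminin 511 receptor and chain genes, EPCAM, KRT19, ALB, ASGR1 and the autoantigens, and genes that DESeq2 called without correction. All other genes were named after their values were seen. The levels of some genes are not reported here.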

Additional observations from a re-analysis of the deposited data

How the results depend on the processing

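With the GC trend removed, the count of 33 was 33 with RLE and with upper-quartile scaling, 36 with the legacy fit, 34 with at least 10 counts in a group, 24 without a filter on low counts (20 of the 33 among them), 36 with a span of 0.6, 35 with a length trend removed too, 31 with only the 6 libraries in the fit (25 of the 33), and 33 with the trend also fitted on those 6 (26 of the 33). It was 121 with DESeq2 (29 higher, 92 lower, 32 of the 33 among them), 12 with limma (all among the 33) and 6 at a threshold of 0.01. Under settings added once the data were seen, it was 49 with the GC content of the longest transcript (29 of the 33 among them) and 36 without mitochondrial genes. Without GC correction the count of 0 became 21 with DESeq2 and was 0 in every other fit.

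Leaving out 1 library gave 0 to 54 genes. The count was 2, 19 and 5 without control libraries 1, 2 and 3, 0, 9 and 2 without laminin 511-E8 libraries 1, 2 and 3, and 12, 54 and 42 without acetazolamide libraries 1, 2 and 3, which enter through the shared spread, the filter and the GC trend. No log2 fold change of the 33 genes changed sign in any alternative. RNF150 and SPOCK2 passed in 8 of these 9 fits, and 19 of the 33 genes passed in 2. The cause of these differences was not tested.

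The groups share replicate numbers. With the replicate number as a block (paired fit, replicate block), 0 genes passed with the GC trend removed (lowest adjusted p 0.0661, 843 genes at an unadjusted p of 0.05) and 0 without correction. The correlations of deviations of same-numbered libraries were 0.119, -0.00128 and -0.0263 after correction, and control library 2 correlated best with another number. With 3 libraries a group, these correlations cannot show whether same-numbered libraries shared a passage or day. The sources used here do not say what the numbers stand for, so the main fit treats the libraries as unpaired. Depth limits low genes most: IL6 rests on 11 to 105 counts per library, and CXCL1, at about 0.5 CPM in control cells, has a standard error of 0.43 on the log2 scale.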
